A study of Arabidopsis thaliana with 4 samples.

Results

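The Aux/IAA repressors and the TIR1/AFB auxin receptors were examined in shoot apices of Arabidopsis thaliana mutants. The 35 genes were chosen by their locus identifiers alone and comprise the 29 Aux/IAA genes (IAA1 to IAA20 and IAA26 to IAA34) and the 6 receptor genes TIR1 and AFB1 to AFB5. All 35 were among the 27322 genes analysed, and all had at least 1 read in both genotypes.

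The apices came from 6-week-old plants labelled mp clv3 or clv3, with older flowers removed. The plants labelled mp clv3 carry mutations in both MP and CLV3, for which the growth description gives the alleles mp319 and clv3-7. By their label, the clv3 plants carry a CLV3 mutation as well. The same growth description, however, names Col-0, the wild-type strain, in their place. Plants were grown on soil at 22 °C under a cycle of 16 h light and 8 h dark. The labels list 2 libraries for each genotype, but the deposited values form 1 column of reads and 1 of RPKM (reads scaled for gene model length and sequencing depth) per genotype. The spread between plants is therefore unknown for every difference below, and whether the genotypes overlap cannot be seen. The mp clv3 column holds 103347441 reads and the clv3 column 100328819. MP (ARF5, AT1G19850), the mutated response factor, had 5063 reads in mp clv3 and 25336 in clv3. CLV3 (AT2G27250), the gene whose mutation both genotypes are labelled with, had 1278 reads in mp clv3 and 110 in clv3, 11.3-fold higher (95% interval for read counting 8.56 to 15.1). Counts per gene do not show which alleles the reads carry, so the doubt about Col-0 was not settled.

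Aux/IAA proteins repress auxin-responsive genes by binding auxin response factors such as MP and by recruiting co-repressors of the TOPLESS family. Auxin acts as a glue between an Aux/IAA protein and a TIR1/AFB protein, the F-box subunit of an SCF ubiquitin ligase, and the Aux/IAA protein is then degraded. The contact lies in a short degron in the Aux/IAA protein. Many Aux/IAA genes are themselves induced by auxin, which makes them a negative feedback on the response. IAA12, also called BODENLOS, is the repressor best known for holding back MP in the embryo.

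In mp clv3 apices the Aux/IAA family split, and the receptors differed little from clv3. Of 29 Aux/IAA genes, 6 stood at least 2-fold above clv3 and 8 at least 2-fold below it, with a false discovery rate (FDR) under 0.05 in the authors' deposited table. Over all genes, 9.33% were higher and 18.5% lower by the same rule (27.8% in either direction). By FDR alone, 11 Aux/IAA genes were higher, 14 were lower and 4 had no call in the authors' deposited table, against a background of 26.4% of genes higher and 46.3% lower (72.7% in all). Differences as small as 0.11 on the log2 scale had such a call among these genes, so folds are given throughout. None of the 6 receptors reached 2-fold. The median log2 ratio of mp clv3 over clv3 was -0.11 for the Aux/IAA genes and -0.15 for the receptors, beside -0.12 for the 18832 genes that averaged at least 100 reads.

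**Figure D1:**
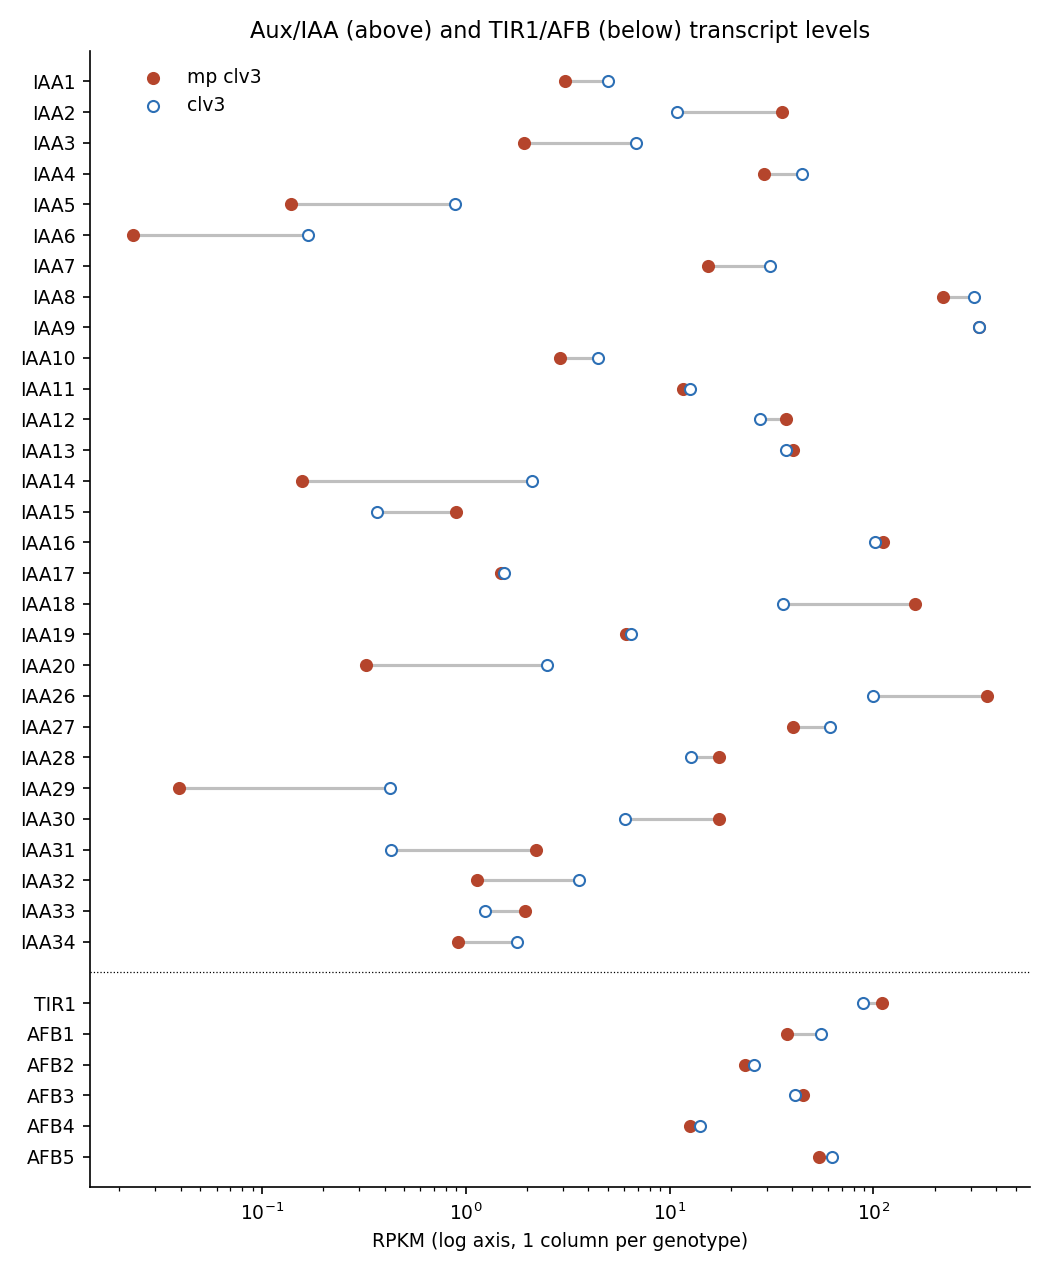
Transcript level in RPKM (log axis) of each Aux/IAA gene (above the dotted line) and each receptor gene (below it), with filled points for mp clv3 and open points for clv3, 1 column per genotype. IAA26 and IAA18 lie far to the right of their clv3 points at 361 and 160.5 RPKM, while each receptor's 2 points lie close together.

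Tissue markers differed between the genotypes beside these values. Meristem genes were present in both, with STM at 217 RPKM in mp clv3 and 98.8 RPKM in clv3, and the 6 meristem markers summed to 332 RPKM in mp clv3 and 197 RPKM in clv3. Of these, 5 were higher and 1 was lower by the FDR of the authors' deposited table, the lower one being KNAT1, with 11.3 RPKM in mp clv3 and 42.5 RPKM in clv3. By the same FDR, 26.4% of all genes were higher and 46.3% lower. All 6 floral organ markers analysed were lower by it, with a sum of 2.15 RPKM in mp clv3 and 437 RPKM in clv3. AG, also planned as a floral organ marker, was not among the 27322 genes analysed. All 11 anther and pollen wall markers were lower as well, with sums of 13.9 RPKM in mp clv3 and 814 RPKM in clv3, and MS2, A7, DYT1 and MYB80 at 0 in mp clv3. Most of the mp clv3 sum came from LAP6, with 13.4 RPKM in mp clv3 and 167 RPKM in clv3. The 8 vascular markers, all lower, summed to 58.6 RPKM in mp clv3 and 123 RPKM in clv3. Of 5 green tissue markers, 4 were lower, and LHCB2.1 was higher, with 31.3 RPKM in mp clv3 and 18.4 RPKM in clv3. The 5 summed to 1652 RPKM in mp clv3 and 3940 RPKM in clv3, of which RBCS1A alone held 1207 and 3088 RPKM. In such bulk tissue, fewer cells of a type and less RNA per cell cannot be told apart, and the part of tissue makeup in the Aux/IAA and receptor values was not tested.

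The Aux/IAA transcripts in the apices came mainly from a few genes, and the leading gene differed between genotypes. The summed level of the family was 1451 RPKM in mp clv3 and 1164 RPKM in clv3. IAA26 (listed in the reference as PAP1, a phytochrome-associated protein) stood first in mp clv3 with 361 RPKM, or 24.9% of the family, and ranked 4 in clv3 with 99.8 RPKM, or 8.57%. IAA9, a broadly expressed member, stood at 331 RPKM in both genotypes, which was 22.8% of the family in mp clv3 and 28.5% in clv3. IAA8, its close relative, had 218 RPKM in mp clv3 and 313 RPKM in clv3, 1.43-fold lower. IAA16 had 112 RPKM in mp clv3 and 102 RPKM in clv3. IAA18 and IAA26, a pair set apart after their values were seen, held 522 RPKM in mp clv3 and 136 RPKM in clv3. The other 27 genes summed to 929 RPKM in mp clv3 and 1029 RPKM in clv3, so the higher sum of the family lay in these 2 genes.

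**Figure D2:**
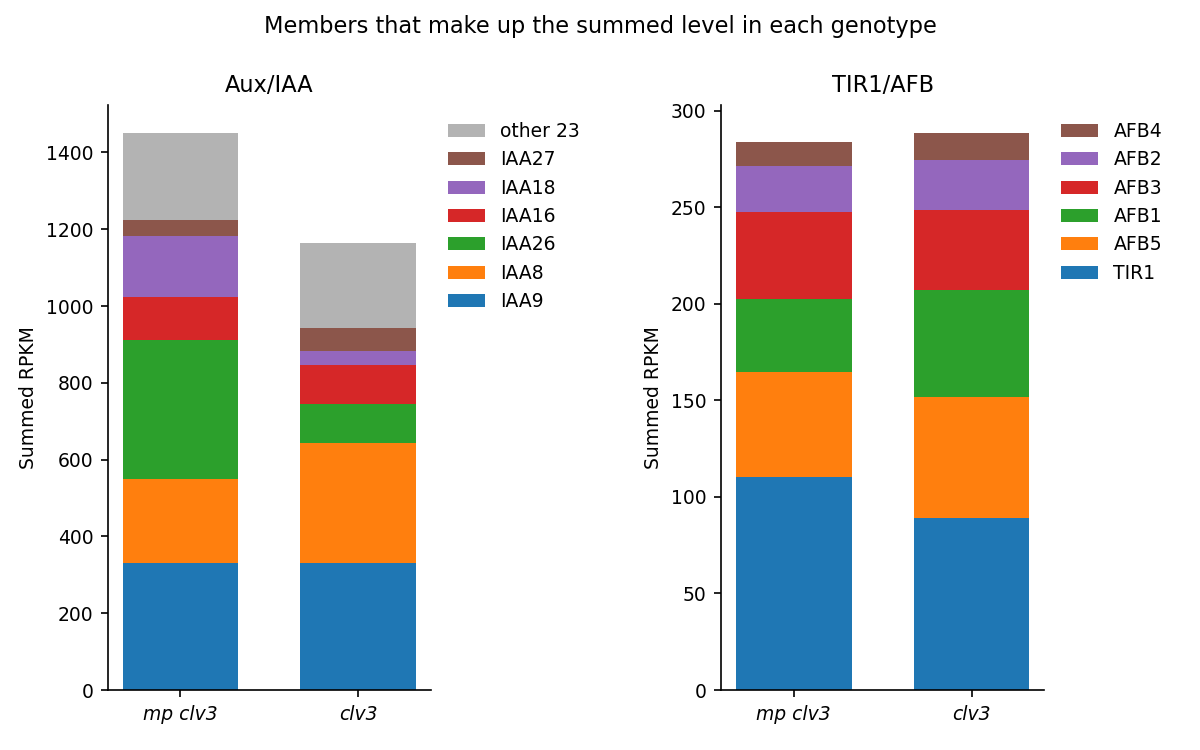
Stacked bars of summed RPKM for the Aux/IAA genes (left panel, 6 highest members and the other 23 together) and the receptors (right panel), with mp clv3 to the left of clv3. The IAA26 and IAA18 segments account for the taller mp clv3 bar, and the receptor bars stand at 284 RPKM in mp clv3 and 288 RPKM in clv3.

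IAA18 and IAA26 had the most reads among the Aux/IAA genes that were higher in mp clv3. IAA18 (AT1G51950), whose gain-of-function alleles disturb the shoot and root poles of the embryo, had 25528 reads (160.5 RPKM) in mp clv3 and 5550 reads (35.9 RPKM) in clv3. That is 4.47-fold higher (95% counting interval 4.29 to 4.65), and this interval covers read counting alone. IAA26 (AT3G16500) had 49000 reads in mp clv3 and 13151 in clv3, 3.62-fold higher (interval 3.52 to 3.72). IAA28 (AT5G25890), which is related to both, had 17.5 RPKM in mp clv3 and 12.8 RPKM in clv3, 1.37-fold higher. In the authors' deposited table all members of this subgroup were called higher in mp clv3, IAA28 by far less than the others. The same call was given to 26.4% of all genes, and to 37.4% of those with a mean of at least 10 RPKM. IAA2 (AT3G23030) had 35.6 RPKM in mp clv3 and 10.9 RPKM in clv3, 3.26-fold higher (interval 2.95 to 3.60). Its closest relative IAA1 had 267 reads in mp clv3 and 421 in clv3, 1.62-fold lower, so this pair parted.

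Among the Aux/IAA genes with little transcript, more were lower than higher. The 15 Aux/IAA genes with a mean under 10 RPKM, a limit set after their values were seen, had 3 higher, 10 lower and 2 without a call by the FDR of the authors' deposited table. Of all 15027 genes under this limit, 17.3% were higher and 42.7% lower. The 14 genes at or above it had 8 higher, 4 lower and 2 without a call, where 37.4% of all 12295 such genes were higher and 50.7% lower. IAA14 (SOLITARY-ROOT, AT4G14550), known for its part in lateral root formation, had 24 reads (0.157 RPKM) in mp clv3 and 314 reads (2.11 RPKM) in clv3. It was 13.5-fold lower (interval 7.50 to 26.6), the lowest ratio among the 35 genes. Its log2 ratio of -3.75 was -2.75 after quantile normalization and -1.43 with 1 RPKM added to both values. IAA3 (SHY2, AT1G04240), a repressor that acts where auxin and cytokinin signals meet in the root, had 236 reads in mp clv3 and 811 in clv3, 3.54-fold lower (interval 2.88 to 4.39). Its sister gene IAA4, with more transcript, had 29.1 RPKM in mp clv3 and 44.8 RPKM in clv3, 1.54-fold lower. Above the limit of 10 RPKM, IAA7 (AXR2, AT3G23050) had 1999 reads (15.4 RPKM) in mp clv3 and 3932 reads (31.2 RPKM) in clv3. It was 2.03-fold lower (interval 1.88 to 2.19), just past the 2-fold limit. It missed that limit (log2 ratio -0.90) with the median of the 18832 genes set to 0.

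IAA5, IAA6, IAA15 and IAA29 also passed 2-fold, with fewer than 100 reads in either genotype. IAA5 had 9 reads in mp clv3 and 56 in clv3. IAA29, which is induced by shade in seedlings, had 4 reads in mp clv3 and 42 in clv3. IAA6 had 2 reads in mp clv3 and 14 in clv3, and its counting interval, from 0.926-fold to 325-fold lower, includes no difference. Counts of 2 and 4 lie under the limit of 6 reads (3 read pairs) that a count of 0 allows. IAA15 had 50 reads in mp clv3 and 20 in clv3, 2.43-fold higher (interval 1.13 to 5.66). With 1 RPKM added to both values, none of these 4 genes reached 2-fold, and their log2 ratios were -0.73 for IAA5, -0.19 for IAA6, 0.47 for IAA15 and -0.45 for IAA29.

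**Figure D3:**
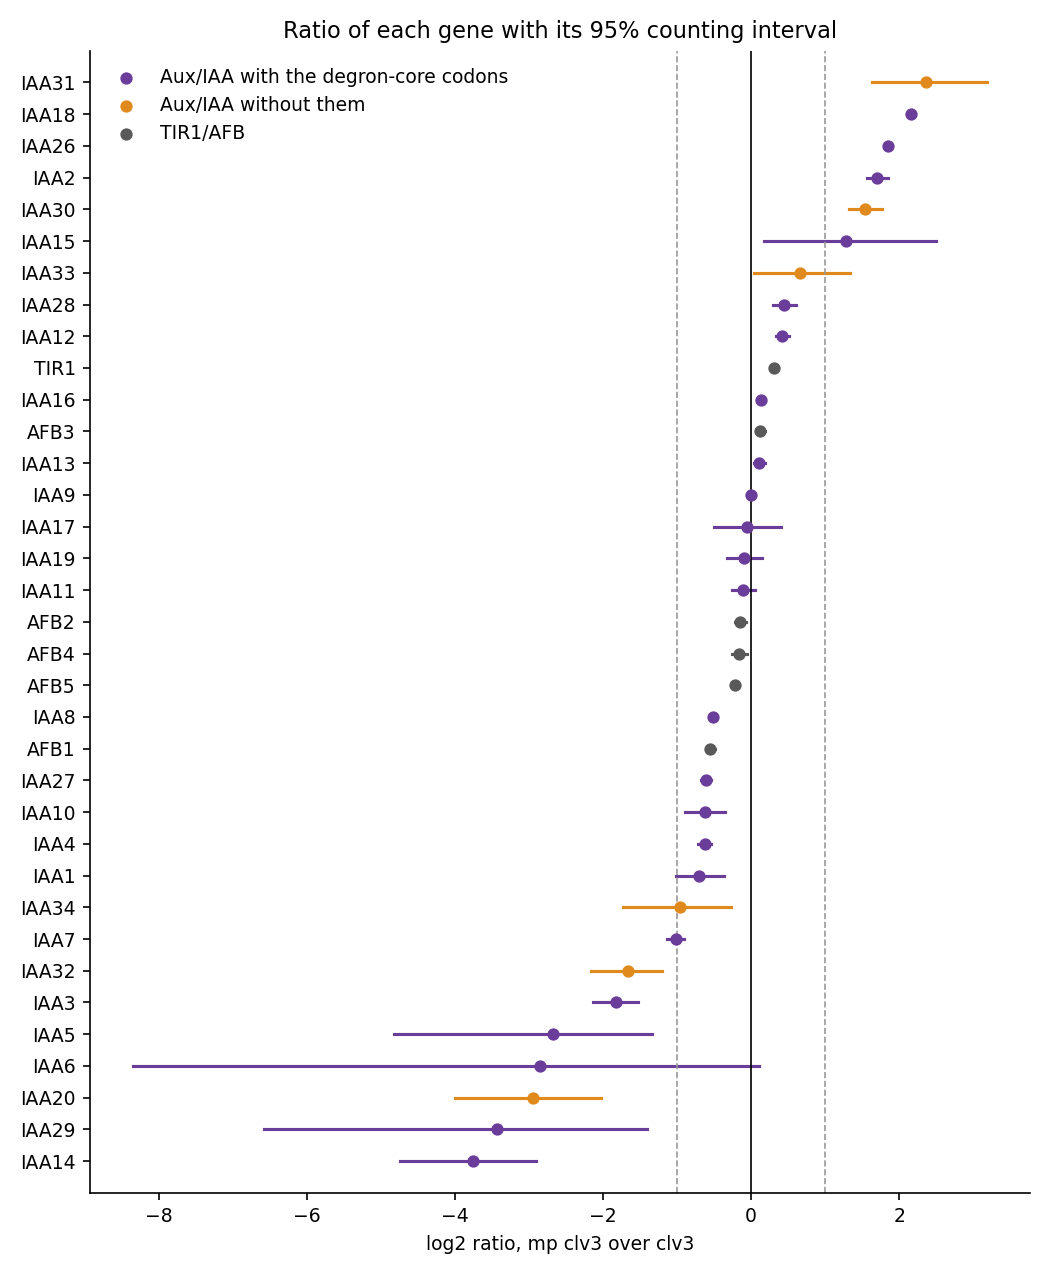
Log2 ratio of mp clv3 over clv3 for each of the 35 genes, ordered by value (purple for Aux/IAA genes with the degron core, orange for those without it, grey for receptors), with bars for the 95% counting interval and dashed lines at 2-fold. The genes span -3.75 (IAA14) to 2.36 (IAA31), the receptors lie between -0.55 and 0.31, and the bars are widest for genes with few reads such as IAA6.

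Members with and without the canonical degron moved in both directions. The degron core is encoded by the codons GGN, TGG, CCN and CCN, and these 4 codons in a row were searched in frame on the coding strand of each RefSeq coding sequence (build TAIR10.1). The core was present in 23 of 29 Aux/IAA genes and absent from IAA20, IAA30, IAA31, IAA32, IAA33 and IAA34, which are known as noncanonical members. Of IAA29's 3 annotated transcripts, 2 held it. The stretches below show this core in capitals for IAA18 and IAA26, the most abundant of the higher members, for their relative IAA28, for the neighbours IAA2 and IAA7 and for IAA14.
IAA18, chr1:19306234-19306260 (+): gtggtgGGATGGCCTCCGgttcgatcc
IAA26, chr3:5613662-5613688 (-): gtggtgGGTTGGCCTCCGgttcgttcg
IAA28, chr5:9033815-9033841 (+): gtggtgGGATGGCCGCCGgtgagatca
IAA2, chr3:8181387-8181413 (-): atcgttGGTTGGCCACCAgtgagatct
IAA7, chr3:8195571-8195597 (+): gtggtgGGATGGCCACCTgtgaggaac
IAA14, chr4:8349478-8349504 (-): gtggtgGGTTGGCCACCGgtgaggaac

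By the 2-fold rule and the FDR of the authors' deposited table, the 23 genes with it had 4 higher and 6 lower members, and their median log2 ratio was -0.11. The 6 genes without it had 2 higher and 2 lower members and a median of -0.15. Over all genes, 9.33% were higher and 18.5% lower by the same rule. IAA31 (AT3G17600) had 191 reads in mp clv3 and 36 in clv3, 5.15-fold higher (interval 3.11 to 9.11), and its log2 ratio of 2.36 was 3.06 after quantile normalization and 1.17 with 1 RPKM added. IAA30 (AT3G62100) had 1328 reads (17.6 RPKM) in mp clv3 and 443 reads (6.04 RPKM) in clv3, 2.91-fold higher (interval 2.49 to 3.40). In contrast, IAA20 (AT2G46990) had 22 reads in mp clv3 and 165 in clv3, 7.73-fold lower (interval 4.07 to 16.0), and its log2 ratio of -2.95 was -2.15 after quantile normalization and -1.41 with 1 RPKM added. IAA32 (AT2G01200) had 100 reads in mp clv3 and 307 in clv3, 3.16-fold lower, and its relative IAA34, which acts with it in the apical hook of seedlings, was 1.94-fold lower. IAA33 had 111 reads in mp clv3 and 68 in clv3, 1.58-fold higher. The noncanonical genes made up 1.66% of the summed Aux/IAA level in mp clv3 and 1.34% in clv3.

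Auxin response factors bind the letters TGTCTC and TGTCGG, which were searched on both strands in the 250 bases before each gene's start in TAIR10.1. The windows of IAA6 and IAA19 share a run of 23 bases, taTGTCTCtcatgtgaccgacca, with a match in capitals. It was the longest shared run among the pairs without IAA30, whose pairs were left out of this choice. Of all 406 pairs of Aux/IAA windows, those with IAA30 included, 6 had a match within their longest shared run. IAA6 had the low counts given above, while IAA19 (MSG2, known from hypocotyl bending) had 611 reads in mp clv3 and 631 in clv3, with no call in the authors' deposited table. Matches were found in 13 of 29 Aux/IAA windows (44.8%), in 1 of 6 receptor windows and in 14.7% of 27443 protein-coding genes. They were in 1 of the 6 Aux/IAA genes at least 2-fold higher in mp clv3, in 4 of the 8 at least 2-fold lower and in 8 of the other 15. A match is a description of the letters and not evidence of binding.

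The 3 pairs of neighbours IAA2 with IAA7, IAA14 with IAA1 and IAA3 with IAA17 lie head to head in the genome with no protein-coding gene between them. They did not move as units. The windows of 250 bases before their starts do not overlap in any of the 3 pairs. IAA2 was 3.26-fold higher in mp clv3 while its neighbour IAA7 was 2.03-fold lower. The log2 ratio of IAA14 was -3.75 and that of its neighbour IAA1 was -0.70. IAA3 stood at -1.82 and its neighbour IAA17 (AXR3), with 168 reads in mp clv3 and 169 in clv3, at -0.05 with no call in the authors' deposited table.

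The remaining Aux/IAA genes differed less. IAA12 (BODENLOS, AT1G04550) had 37.1 RPKM in mp clv3 and 27.7 RPKM in clv3, 1.34-fold higher (interval 1.26 to 1.42), and its sister IAA13 was 1.08-fold higher. IAA27 was 1.52-fold and IAA10 was 1.54-fold lower. IAA9, IAA11, IAA17 and IAA19 had no call in the authors' deposited table, with log2 ratios of -0.00, -0.11, -0.05 and -0.09. With the median of the 18832 genes set to 0, which adds 0.12 to every log2 ratio, these 4 values became 0.12, 0.01, 0.07 and 0.03.

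**Figure D4:**
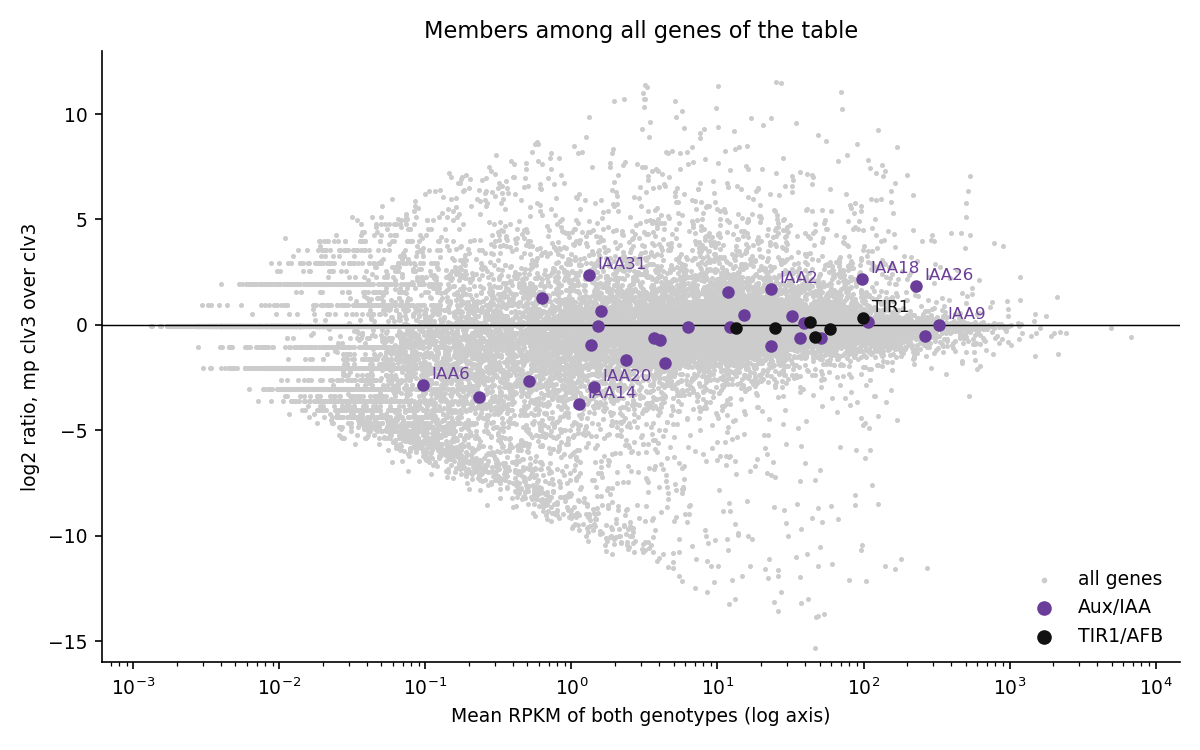
Log2 ratio of mp clv3 over clv3 against the mean RPKM of both genotypes (log axis) for all 27322 genes (grey, with 0 reads drawn as 0.5), the Aux/IAA genes (purple) and the receptors (black). The receptors lie near 0, while the Aux/IAA genes range from 2.36 down to -3.75, inside the range of all genes.

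The receptors were close to level between the genotypes, with a summed 284 RPKM in mp clv3 and 288 RPKM in clv3. TIR1 (AT3G62980), the first auxin receptor described, had 26718 reads (110 RPKM) in mp clv3 and 20873 reads (88.8 RPKM) in clv3. It was 1.24-fold higher (interval 1.21 to 1.28) and made up 38.9% of the receptor transcripts in mp clv3 and 30.8% in clv3. AFB1 (AT4G03190), which is needed for rapid growth responses of roots, had 37.8 RPKM in mp clv3 and 55.3 RPKM in clv3, 1.46-fold lower (interval 1.40 to 1.52). These 2 related genes had the largest differences among the receptors, in opposite directions.

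AFB2 (AT3G26810) had 23.5 RPKM in mp clv3 and 26.0 RPKM in clv3, 1.11-fold lower. AFB3 (AT1G12820) had 45.1 RPKM in mp clv3 and 41.3 RPKM in clv3, 1.09-fold higher. For the receptors that bind the auxin-like herbicide picloram, AFB5 (AT5G49980) had 54.4 RPKM in mp clv3 and 62.9 RPKM in clv3, 1.16-fold lower, and AFB4 (AT4G24390) had 12.6 RPKM in mp clv3 and 14.1 RPKM in clv3, 1.11-fold lower. All 6 had a call in the authors' deposited table, 2 higher and 4 lower, where 72.7% of all genes had one. Relative to the median of the 18832 genes, the log2 ratios were 0.43 for TIR1, 0.25 for AFB3, -0.03 for both AFB2 and AFB4, -0.09 for AFB5 and -0.43 for AFB1. The order of the receptors by level was TIR1, AFB5, AFB3, AFB1, AFB2 and AFB4 in mp clv3, and AFB1 and AFB3 changed places in clv3.

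The microRNA miR393 pairs with transcripts of TIR1, AFB2 and AFB3 and lowers them, and a similar site lies in AFB1. Its mature sequence is shown with the seed (bases 2 to 8) in capitals, followed by the best ungapped match in the coding sequence of each of these 4 receptors, on the coding strand, with capitals where a base differs from the exact complement.
miR393a, chr2:16652111-16652132 (+): tCCAAAGGgatcgcattgatcc
TIR1, chr3:23273727-23273748 (-): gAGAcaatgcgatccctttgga
AFB1, chr4:1405341-1405362 (-): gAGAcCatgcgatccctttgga
AFB2, chr3:9870237-9870258 (+): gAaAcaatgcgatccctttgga
AFB3, chr1:4369085-4369106 (-): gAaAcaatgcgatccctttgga

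The sites in AFB2 and AFB3 carry the same 2 differences (G2A and T4A, with the base of the exact complement first and positions counted from 1 at the 5' end of the site). TIR1 has 3, adding A3G, and AFB1 has 4, adding A6C as well. The best matches in AFB4 and AFB5 had 7 and 8 differences over the 22 bases. The mature miR393b sequence in the annotation is the same as that of miR393a. The level of miR393 was not measured in this mRNA table, and its part in the receptor values was not tested.

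Few other genes of the receptor complex and the repression machinery passed 2-fold. Of 23 genes on that list, 1 passed the 2-fold rule upward and 2 downward, where 9.33% of all genes were higher and 18.5% lower. By FDR alone the authors' deposited table had 11 higher and 8 lower, against 26.4% and 46.3% of all genes, and the median log2 ratio was 0.02. The co-repressor TPL had 94.5 RPKM in mp clv3 and 82.9 RPKM in clv3, and the 5 genes of its family lay between -0.32 and 0.24 on the log2 scale. SGT1B, which assists SCF complexes, had 150 RPKM in mp clv3 and 102 RPKM in clv3, 1.47-fold higher. RUB3, a gene for the ubiquitin-like protein attached to cullins, had 0 reads in mp clv3 and 24 in clv3. It was 4.12-fold lower with the floor of 6 reads in place of 0, and its counting interval starts at 2.86-fold lower. Among activating response factors, MP was 5.15-fold lower (interval 4.94 to 5.38). ARF19, a relative that acts in seedlings and roots, had 18.2 RPKM in mp clv3 and 8.69 RPKM in clv3, 2.09-fold higher (interval 1.97 to 2.22).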

How the data were processed

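Strand-specific libraries of poly(A) RNA from shoot apices were sequenced from both ends (100 bases each), per the labels' protocols. The submitters' processing notes name CASAVA 1.7, BWA and TAIR10. The counting method, the use of strand and the way 2 libraries became 1 column are not given in the sources. The authors deposited reads per gene (0.5 stands for 0) and RPKM, per the file headers. The deposited log2 ratio is that of the RPKM, mp clv3 over clv3. The deposited FDR is an adjusted p-value whose test is not stated. Of 27323 genes, 1 with shifted cells was left out.

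Ratios were computed from reads and the column totals (ratio 1.03). Their 95% intervals are exact (Clopper-Pearson) and use reads divided by 2, because 82.5% of values from 1 to 9 were even in mp clv3 and 83.3% in clv3. Reads of 1 pair are not independent, and whether both mates were counted is not stated. The intervals cover counting error only, as does the floor of 3 read pairs. The planned test across libraries was not possible with 1 column per genotype, so a call means an FDR under 0.05 in the authors' deposited table, with at least 2-fold in addition where stated. The interval code was tested on simulated data.

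RefSeq's TAIR10.1 genome and annotation gave sequences and names, matched by locus identifier. The table holds no coordinates, and those printed belong to TAIR10.1 alone. Protein sequences were not used here, so the degron was searched as codons and the planned search for repression motifs was not made. Model lengths implied by the RPKM equalled a RefSeq transcript in 2 of 35 genes, so gene starts may differ from those the authors used. The longest exact run shared by transcripts of any 2 of the 35 genes was 52 bases (IAA20 and IAA30), and how reads matching several genes were counted is not given. In TAIR10.1, 12 of the 35 overlap another gene (IAA3, IAA5, IAA9, IAA10, IAA11, IAA13, IAA27, IAA32, IAA34, AFB1, AFB3 and AFB4), whose reads may be mixed in.

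The genes and lists were chosen with earlier results of these data known. Values are given in full for Aux/IAA genes at least 2-fold different with at least 100 reads in the higher genotype, for all receptors, for the 3 highest members of each family in each genotype, and for the 4 machinery genes with the largest log2 ratio. Other genes were named after their values were seen. Alternatives were median scaling, quantile normalization, pseudocounts of 1 and 0.1 RPKM, a minimum mean of 100 reads and other fold limits. Python 3.11.15, pandas 2.3.3, scipy 1.17.1 and matplotlib 3.10.9 were used.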

Additional observations from a re-analysis of the deposited data

How the results depend on the processing

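No paired analysis was possible because the 2 libraries of a genotype share 1 column, so no library could be left out and no test across libraries was run. By FDR alone, the Aux/IAA genes numbered 11 higher and 14 lower (6 and 8 at 2-fold), the receptors 2 higher and 4 lower (0 and 0) and the machinery genes 11 higher and 8 lower (1 and 2). Of all genes, 26.4% were higher and 46.3% lower by FDR alone (9.33% and 18.5% at 2-fold). Aux/IAA genes lower in mp clv3 came to 4 with a pseudocount of 1 RPKM, which shrinks low genes, 4 when a mean of 100 reads was required, which removes them, and 13 at 1.5-fold. Machinery genes higher numbered 0 with a pseudocount of 1 RPKM and 0 at 3-fold, and those lower came to 1 when a mean of 100 reads was required. The share of all genes was not computed at these other settings, so these counts have no background beside them. Over 5 settings, 261 of 282 log2 ratios of single genes kept both their sign and their side of the 2-fold limit, and 12 changed sign. Of the 282, 50 came from requiring a mean of 100 reads. That setting only removes genes and leaves each ratio as it is, so these 50 could not change. Among genes with a call, ASK2 alone changed sign, to 0.0087 under median scaling. The other 11 changes, under median scaling or quantile normalization, were in 7 genes without a call (IAA9, IAA11, IAA17, IAA19, AXL1, ECR1 and RUB1). IAA7 lost the 2-fold limit under median scaling (-0.90), quantile normalization (-0.98) and a pseudocount of 1 RPKM (-0.97). All settings kept the authors' FDR, so they could not test the calls themselves, and the spread between plants is unknown.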
